A study of Homo sapiens with 96 samples.

Results

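The early response to the MEK inhibitor U0126 was read in MDA-MB-231 cells, an established human breast cancer line, at 0.5 h and 1 h after EGF was added. It rests on 12 of the 96 arrays of the series: 6 of U0126 with EGF and 6 of its vehicle, DMSO with EGF (DMSO-EGF). They were chosen by treatment and time label alone, and each U0126 array was paired with the DMSO-EGF array of the same series and time. Series 2D03 and 2D04 are the first and second repeat of 2D culture, and 3D04 is a single series of 3D culture. Cells at 80% confluence spent 24 h in low serum. They then received 10 uM U0126 or DMSO for 30 min, and 10 ng/ml EGF at 0 h. U0126 had therefore been present for 1 h at the 0.5 h reading and for 1.5 h at the 1 h reading. All arrays of both groups had EGF, and no other inhibitor was used. The same times also had EGF without vehicle and untreated control arrays, 12 in all, which entered the fit to estimate the spread. Each group had 3 arrays per time, 1 per series, and no label tells separate cultures from repeats of 1 culture, so p-values measure only the spread between these samples, which may be technical.

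U0126 blocks MEK1 and MEK2, the kinases that phosphorylate and activate ERK. In this pathway EGF binds its receptor and activates RAS, RAF kinases, MEK and then ERK, and active ERK phosphorylates transcription factors already present in the nucleus. Their first targets, the immediate early genes, need no new protein synthesis and have short-lived mRNAs. A further set of ERK targets encodes feedback inhibitors, among them dual-specificity phosphatases that dephosphorylate ERK and Sprouty proteins that dampen receptor signalling.

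The values were differences from an unknown reference for each probe set, presumed to be on a log2 scale, so a gene's absolute level cannot be given and the cell type could not be checked by marker levels. A value below 0 does not mean that a gene was silent. The difference between U0126 and DMSO-EGF is unaffected by that reference. The number of arrays, not read depth, limits the precision. The 12 arrays had medians between -0.04 and 0, and their actin probe sets differed by -0.11 to 0.11 between the 5′ and the 3′ end. Each probe set is centred, so this compares RNA integrity between arrays and does not show that the RNA was intact. Of 22 measured markers of leukocytes, fibroblasts and luminal epithelium, 0 were called at either time or for the average of both, where their differences lay between -0.10 and 0.10. Over all genes 0.444% were called for the average, so 0 of 22 does not set the markers apart. The fit over 11940 genes called a gene at an adjusted p under 0.05 (limma, Benjamini-Hochberg). Every fit paired the arrays by series and time. Without this replicate block, 0 genes were called at 0.5 h, 0 at 1 h and 0 for the average of both times.

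At 0.5 h, 4 genes passed the test, 0.0335% of those tested. EGR1, ZFP36 and IER2 were lower in U0126 cells (0.0251%) and CYP1B1 was higher (0.00838%). EGR1 is a zinc-finger transcription factor and a standard marker of ERK activity. ZFP36, also called tristetraprolin, binds AU-rich mRNAs and speeds their decay, and IER2 is a nuclear protein of the immediate early class. CYP1B1 is a cytochrome P450 enzyme and a standard target of the aryl hydrocarbon receptor, the sensor of planar aromatic compounds.

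The EGR1 values in series 2D03, 2D04 and 3D04 were 2.47, 2.17 and -0.24 with U0126, against 3.32, 3.36 and 1.59 with DMSO-EGF. The 3D series sat lower in both groups, so the groups overlapped across series, but each U0126 array was below its partner. EGR1 fell by 1.29 ± 0.17 on the log2 scale, a 2.45-fold decrease (limma adjusted p = 0.0027), with paired steps of -0.85, -1.19 and -1.83. Here and below, the value after ± is the SE from the fit, which pools the spread over all 24 arrays at both times. It is not computed from the 3 steps alone, which can be farther apart.

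ZFP36 read -0.70, -0.97 and -1.95 with U0126, against 0.29, -0.23 and -1.02 with DMSO-EGF. Its 3 paired differences lay close together, at -0.99, -0.74 and -0.93, while its level differed by more than 1 between series in both groups. The gene fell by 0.89 ± 0.12 (adjusted p = 0.0027).

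IER2 read 0.65, -0.02 and -0.89 with U0126, against 1.18, 0.74 and -0.11 with DMSO-EGF. It showed the same pattern of a level set by series and a like-sized step within each. The step was -0.69 ± 0.08 (adjusted p = 0.0022).

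CYP1B1 was the gene called higher. Its values were -1.27, -0.32 and -1.77 with U0126, against -1.95, -1.79 and -3.25 with DMSO-EGF. The smallest step was in 2D03, at 0.68, and the others were 1.47 and 1.48. The fitted rise was 1.21 ± 0.18, or 2.31-fold (adjusted p = 0.011). Of the 3 CYP1B1 probe sets not read, a pair gave 1.27 and 1.09 at 0.5 h and the third 0.08, and at 1 h they gave 1.47, 1.51 and 0.22.

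**Figure D1:**
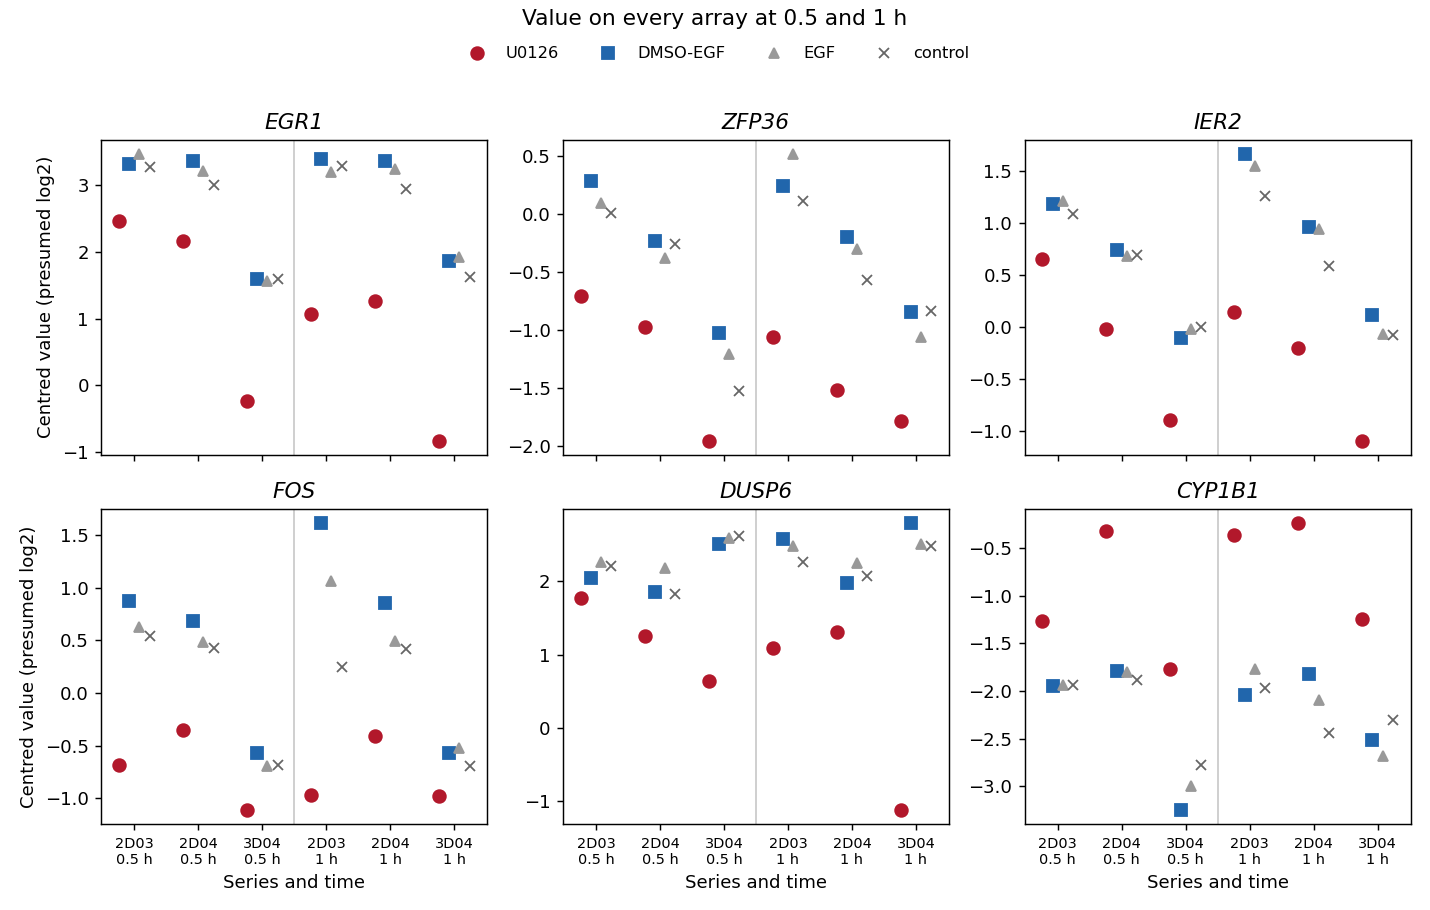
The vertical axis is the centred value of a gene (presumed log2) and the horizontal axis the series and time, with 1 point per array: U0126 as red circles, DMSO-EGF as blue squares, EGF without vehicle as grey triangles and untreated control as crosses. U0126 was the lowest of the 4 arms for EGR1, ZFP36, IER2, FOS and DUSP6 and the highest for CYP1B1 in all 6 combinations of series and time.

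FOS, which pairs with JUN proteins in the AP-1 transcription factor, read -0.68, -0.35 and -1.11 with U0126 at 0.5 h, against 0.87, 0.68 and -0.57 with DMSO-EGF. Each U0126 array was again below its partner, but the steps ranged from -1.55 in 2D03 to -0.54 in 3D04. The mean difference of -1.04 ± 0.26 was larger than that of ZFP36 or IER2 but missed the threshold (adjusted p = 0.58). DUSP6, a cytoplasmic phosphatase of ERK, read 1.77, 1.25 and 0.64 with U0126, against 2.04, 1.85 and 2.51 with DMSO-EGF. Its steps of -0.27, -0.60 and -1.87 averaged -0.91 ± 0.43 (adjusted p = 0.86). Over all genes, 12.3% were lower and 10.4% higher with U0126 in all 3 pairs at 0.5 h, so an equal sign in 3 pairs is common. The count of 4 genes dropped to 0 without series 2D04 or without its 0.5 h pair, to 1 without series 2D03, and to 2 without series 3D04 or its 0.5 h pair.

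The stretch around the transcription start, taken from RefSeq on GRCh38.p14 (250 bases before to 50 after the start), is shown for the 3 genes lower at 0.5 h and for FOS, to set their sequences beside their early steps. The windows are EGR1 at chr5:138465229-138465528 (plus strand), ZFP36 at chr19:39406597-39406896 (plus strand), IER2 at chr19:13150161-13150460 (plus strand) and FOS at chr14:75278578-75278877 (plus strand). Capitals mark matches, on either strand, to the CArG box, the site of serum response factor, and to TGACG, the core of the cAMP response element bound by CREB and ATF factors.
EGR1: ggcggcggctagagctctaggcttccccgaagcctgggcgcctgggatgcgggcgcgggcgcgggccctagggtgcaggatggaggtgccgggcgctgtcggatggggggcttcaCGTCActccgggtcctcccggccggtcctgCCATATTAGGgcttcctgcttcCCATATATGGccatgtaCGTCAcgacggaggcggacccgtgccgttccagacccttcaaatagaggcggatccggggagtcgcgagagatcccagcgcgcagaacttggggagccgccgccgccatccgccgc
ZFP36: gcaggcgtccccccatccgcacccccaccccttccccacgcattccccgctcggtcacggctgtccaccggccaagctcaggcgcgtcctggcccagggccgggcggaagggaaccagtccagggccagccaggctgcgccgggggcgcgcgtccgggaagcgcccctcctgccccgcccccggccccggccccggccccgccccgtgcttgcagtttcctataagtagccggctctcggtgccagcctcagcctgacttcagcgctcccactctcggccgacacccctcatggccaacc
IER2: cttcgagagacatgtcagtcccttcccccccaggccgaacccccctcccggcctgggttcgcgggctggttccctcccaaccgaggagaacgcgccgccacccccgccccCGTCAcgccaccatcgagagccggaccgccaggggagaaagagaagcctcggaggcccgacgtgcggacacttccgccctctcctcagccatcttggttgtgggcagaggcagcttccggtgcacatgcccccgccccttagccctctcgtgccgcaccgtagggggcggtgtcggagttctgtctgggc
FOS: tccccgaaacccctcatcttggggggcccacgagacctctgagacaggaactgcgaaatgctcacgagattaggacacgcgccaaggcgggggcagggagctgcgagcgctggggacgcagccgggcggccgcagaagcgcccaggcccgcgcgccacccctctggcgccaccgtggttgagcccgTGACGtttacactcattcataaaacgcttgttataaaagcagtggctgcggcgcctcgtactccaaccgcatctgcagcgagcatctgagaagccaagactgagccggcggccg
EGR1 had 2 CArG boxes, which began 105 and 83 bases before the start (CCATATTAGG and CCATATATGG), and 2 TGACG cores, at 135 and 66 bases before it. FOS had 1 TGACG core and IER2 had 1, beginning 64 and 140 bases before their starts, and the ZFP36 window held neither motif. The DUSP6 window, which is not printed, also held neither. A CArG box was in 1.29% of all 27305 promoter windows and in 1 of the 37 windows found for the 48 genes lower over both times (2.7%). TGACG was in 18 of those 37 (48.6%), in 31.4% of the 9592 windows of measured genes and in 25% of all windows. It was also in all 4 windows found for the 5 genes higher over both times. Other motifs sought in the 37 windows were CCGGAA (24.3%, beside 24.7% of measured genes) and TGANTCA (5.41%, beside 5.48%). GGGCGG was in 70.3%, beside 63.1%, and TATAAA in 16.2%, beside 8.59%. No difference between these shares was tested. These matches describe the windows and do not show that a factor was bound. Sites outside the windows were not sought, so a window without a motif does not show that the gene lacks one.

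At 1 h, 33 genes passed (0.276% of those tested), 30 lower (0.251%) and 3 higher (0.0251%) with U0126, and all 4 genes of the earlier time were among them. EGR1 read 1.07, 1.27 and -0.83 with U0126, against 3.40, 3.36 and 1.87 with DMSO-EGF. Within 2D culture the groups did not overlap at either time, and the 3D value with U0126 was the lowest of all 12. The fall was 2.37 ± 0.17, or 5.18-fold (adjusted p = 2.7e-07). IER2 fell by 1.29 ± 0.08 (adjusted p = 1.3e-07) and ZFP36 by 1.18 ± 0.12 (adjusted p = 4.2e-05), each lower in 3 of 3 pairs. CYP1B1 was 1.51 ± 0.18 higher, or 2.84-fold (adjusted p = 0.00047), with steps of 1.68, 1.58 and 1.26.

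Transcription factors formed the first group at 1 h. Of 21 measured immediate early transcription factors, 4 were called lower (EGR1, FOS, JUN and KLF2), beside 0.251% of all genes, and 0 higher. The list's median was -0.44 beside 0.01 for all genes. All gene lists here and below were written with earlier results of these data known, so a larger share can be built in. FOS read -0.97, -0.41 and -0.98 with U0126, against 1.61, 0.85 and -0.57 with DMSO-EGF. In 2D culture the groups were far apart, while in 3D both values were low. FOS fell by 1.42 ± 0.26 (adjusted p = 0.019). KLF2, a zinc-finger factor of the Kruppel-like family, read 0.76, 0.33 and 0.19 with U0126, against 2.27, 1.48 and 1.09 with DMSO-EGF, with no overlap between the groups. KLF2 fell by 1.19 ± 0.13 (adjusted p = 0.00011). JUN fell by 0.94 ± 0.18 (adjusted p = 0.03), and FOSL1, an AP-1 member counted with the ERK output genes, by 0.54 ± 0.07 (adjusted p = 0.0013).

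Other immediate early response genes, with varied roles, formed the second group. Of 12 measured, 7 were called lower at 1 h, beside 0.251% of all genes, and 0 higher, with a median of -0.80. Among the 7 were IER2, IER3, TRIB1, SGK1, PHLDA1 and MCL1. IER3, a stress-induced protein that affects cell survival, fell by 1.30 ± 0.22 (adjusted p = 0.0099), with steps of -1.20, -0.80 and -1.90 in the 3 series. SGK1, a kinase induced by serum and glucocorticoids, fell by 1.12 ± 0.14 (adjusted p = 0.00058). MCL1, which protects cells from apoptosis, fell by 0.57 ± 0.10 (adjusted p = 0.0099).

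Secreted signals included CXCL8, second to EGR1 in size among the genes called at 1 h. CXCL8 is the neutrophil chemokine interleukin 8. It read 2.62, 0.87 and -0.89 with U0126, against 4.41, 2.17 and 1.89 with DMSO-EGF. Its level differed by more than 2 between the series in both groups, and each U0126 array was below its partner. CXCL8 fell by 1.96 ± 0.33, or 3.88-fold (adjusted p = 0.0099). The list of cytokine and chemokine genes also holds the prostaglandin synthase gene PTGS2. Of its 14 measured genes, 3 were called lower at 1 h, beside 0.251% of all genes: CXCL8, PTGS2 and LIF. PTGS2 fell by 1.13 ± 0.19 (adjusted p = 0.0093) and LIF, a cytokine of the interleukin 6 family, by 0.69 ± 0.12 (adjusted p = 0.0099). None of the 6 measured EGFR ligand genes was called at 1 h, beside 0.276% of all genes.

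Feedback inhibitors of the pathway made up the next group. The nuclear ERK phosphatase DUSP5 fell by 1.26 ± 0.24 at 1 h (adjusted p = 0.026). It was the 1 called of 9 measured dual-specificity phosphatases, beside 0.276% of all genes. DUSP6 read 1.09, 1.31 and -1.12 with U0126, against 2.57, 1.98 and 2.79 with DMSO-EGF. Each U0126 array lay below all 3 DMSO-EGF arrays, but the 3D step of -3.91 was far larger than the 2D steps of -1.48 and -0.67. The mean difference of -2.02 ± 0.43 lay just outside the threshold (adjusted p = 0.053). Of 5 measured Sprouty, SPRED and receptor feedback genes, 2 were called lower, beside 0.251% of all genes, with a list median of -0.72. SPRY4 fell by 1.27 ± 0.24 (adjusted p = 0.023) and SPRY1 by 1.01 ± 0.20 (adjusted p = 0.035). A second SPRY4 probe set differed by -0.01 at 1 h, so the SPRY4 value depends on the probe set read.

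Other genes called lower at 1 h were CCN2, a matricellular protein and YAP target (-0.89 ± 0.12), the pro-apoptotic BH3-only gene PMAIP1 (-0.89), the tRNA-modifying enzyme gene YRDC (-0.69), FXYD5 (-0.65), ENC1 (-0.58), TENT5C (-0.50), SOWAHC (-0.49), the thioredoxin inhibitor gene TXNIP (-0.46), thrombomodulin (THBD, -0.44), TGDS (-0.39) and MOAP1 (-0.32). For FXYD5 a second probe set differed by 0.07. All 30 genes were lower in all 3 pairs at 1 h, beside 11.2% of all genes. Calls rest on these same pairs, so a larger share is built in, here and for the genes called higher. Besides CYP1B1, the genes called higher at 1 h were REEP2, which shapes the endoplasmic reticulum (0.44 ± 0.09, adjusted p = 0.041), and CTC1, a subunit of a telomere maintenance complex (0.32 ± 0.06, adjusted p = 0.045). They were higher in 3 of 3 pairs at 1 h, beside 13.7% of all genes, and did not show that sign throughout at 0.5 h, where REEP2 had steps of 0.00, 0.05 and -0.21. The count of 33 became 5 without series 2D03, 7 without its 1 h pair, 18 without the 3D04 1 h pair, 20 without series 3D04 and 21 without series 2D04. EGR1, IER2 and ZFP36 passed at 1 h under all 19 alternatives that kept the pairing, with adjusted p of at most 0.015.

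Averaged over both times, 53 genes passed (0.444% of those tested), 48 lower (0.402%) and 5 higher (0.0419%) with U0126. Both times of a series come from the same series and are not separate repeats. The average held 30 of the 33 genes called at 1 h, all but TENT5C, REEP2 and CTC1, and added 23. DUSP6 was among the added genes, with a fall of 1.47 ± 0.30 or 2.76-fold (adjusted p = 0.036), and its other probe sets averaged -1.26 and -1.25. The DUSP6 call was kept under 11 of the 19 alternatives that kept the pairing, where its limma adjusted p reached 0.26. HBEGF, the heparin-binding ligand of the EGF receptor, fell by 0.87 ± 0.18 (adjusted p = 0.042) and was the 1 EGFR ligand of 6 that was called. One further HBEGF probe set averaged -0.76 and another 0.03. SPRY2 fell by 0.61 ± 0.12 (adjusted p = 0.022), which made 3 of 5 feedback genes. JUNB, an AP-1 subunit, fell by 0.69 ± 0.11 (adjusted p = 0.0046) and the Kruppel-like factor KLF10 by 0.56 ± 0.12 (adjusted p = 0.042), which made 6 of 21 immediate early transcription factors.

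The added genes also held the chemokine CXCL2 (-0.61 ± 0.13) and interleukin 11 (IL11, -0.59 ± 0.12). That made 5 of 14 cytokine and chemokine genes called lower, beside 0.402% of all genes. ZFP36L1, a relative of ZFP36, averaged -0.55, but its 4 probe sets ranged from -0.67 to 0.10. EPHA2, a receptor tyrosine kinase and ERK output gene, fell by 0.44 ± 0.09 on the average (SE from the fit, adjusted p = 0.036), and endothelin 1 (EDN1) by 0.41 (adjusted p = 0.014). Also lower were RASA2, which switches RAS off (-0.41), the CDK inhibitor gene CDKN1A (-0.29), the insulin receptor substrate gene IRS2 (-0.27), PLK2, CHAC1, ZNF804A, KBTBD2, CCNJ and CCNL1. The genes called higher beside CYP1B1 moved by little: the lipoic acid synthase gene LIAS by 0.27 ± 0.05, the CDK inhibitor gene CDKN1B by 0.26 ± 0.06, the zinc-finger gene MZF1 by 0.25 ± 0.05 and the transcriptional repressor gene NFIL3 by 0.21 ± 0.04, each in 6 of 6 pairs, beside 1.4% of all genes. Their adjusted p lay between 0.03 and 0.049, and they were called on these same pairs, so the equal signs are largely built in. For MZF1 the 5 probe sets not read averaged between -0.04 and 0.10, so its call rests on 1 probe set of 6. All 4 kept their calls under fewer than 10 of the 19 alternatives that kept the pairing, as did 10 of the 48 lower genes: HBEGF, CXCL2, IL11, EPHA2, CDKN1A, IRS2, CHAC1, ENC1, ZNF804A and CCNJ. EGR1, IER2, ZFP36, KLF2, SGK1 and CYP1B1 kept theirs under all 19. The count of 53 became 9 without series 2D03, 16 without series 3D04, 20 without series 2D04, and 18, 28 and 21 without the 2D03 1 h, the 2D04 0.5 h and the 3D04 0.5 h pair.

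**Figure D2:**
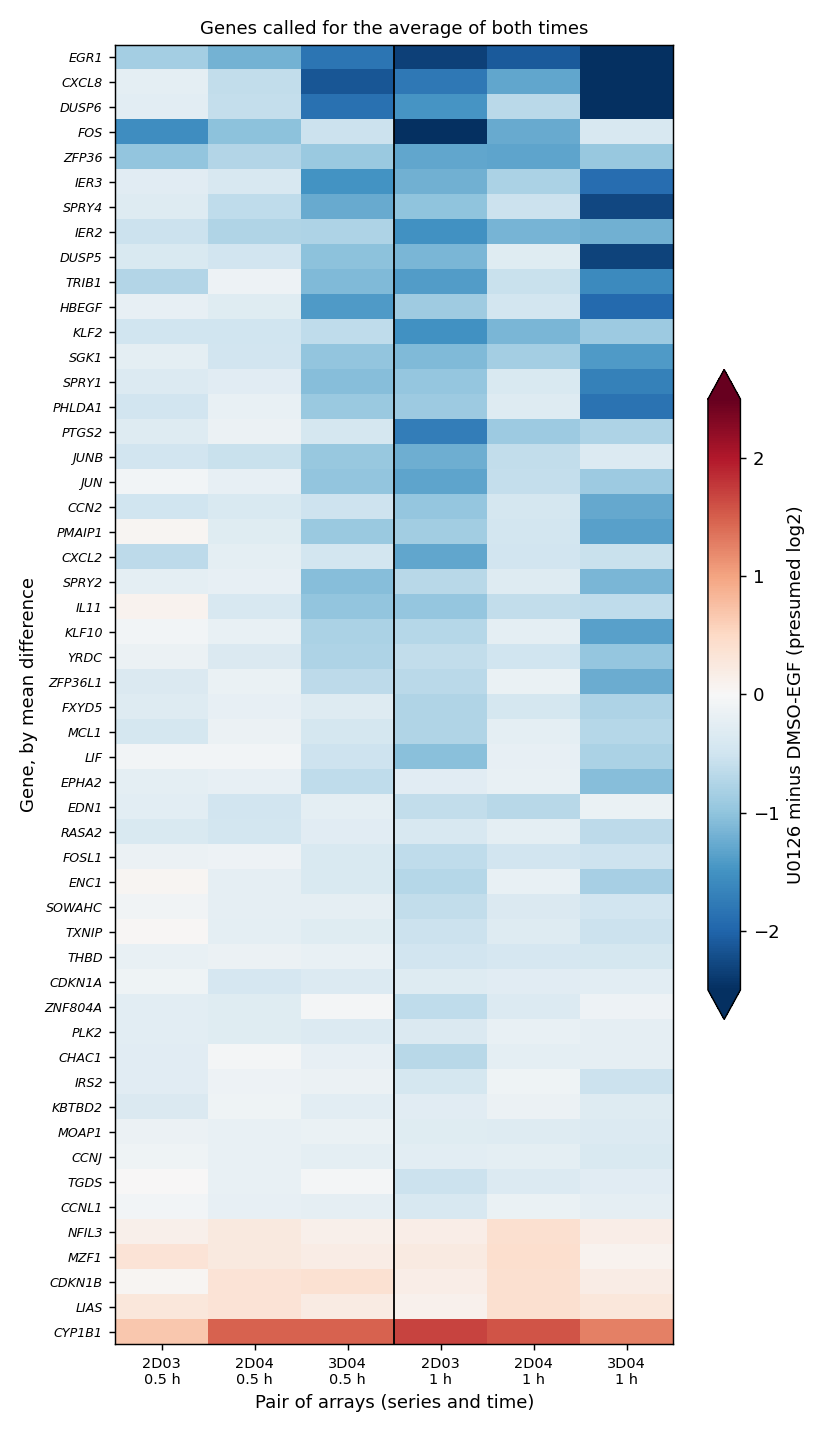
Each row is a gene called for the average of both times and each column a pair of arrays, with the 0.5 h pairs left of the line and the 1 h pairs right of it. Colour gives U0126 minus DMSO-EGF (presumed log2), blue where U0126 was lower, and the scale is capped at 2.5 in either direction. EGR1 heads the lower genes, of which 1 is not shown, and CYP1B1 ends the 5 higher ones.

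Among the 48 lower genes, 43 were lower in all 6 pairs, beside 1.9% of all genes. The others were ENC1, IL11, PMAIP1, TGDS and TXNIP. The 48 genes were called on these same pairs, so agreement above the share of all genes is built in. The EGF and untreated arrays give a view of whether the U0126 arrays or the DMSO-EGF arrays stood apart. In 30 of the 48 genes the U0126 array was the lowest of the 4 arms in all 6 combinations of series and time, beside 0.419% of all genes. Calls were made against the DMSO-EGF arrays of these pairs, so part of such a gap is built in. For EGR1 at 1 h, EGF without vehicle read 3.20, 3.25 and 1.93 and untreated cells 3.29, 2.95 and 1.62, close to DMSO-EGF and far above U0126. For CYP1B1 the U0126 array was the highest of the 4 arms in all 6, beside 0.0838% of all genes.

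Several lists held 0 called genes at 0.5 h, at 1 h and for the average, beside 0.0335%, 0.276% and 0.444% of all genes. They were 10 genes of the RAS-RAF-MEK-ERK cascade with EGFR, 18 genes of G1/S and DNA replication, 18 of G2/M and mitosis, 11 of ribosome biogenesis, 9 of cholesterol synthesis and 10 interferon-stimulated genes. Their medians for the average lay between -0.03 and 0.01, beside 0.00 for all genes. With such low shares over all genes, 0 calls in lists of this size do not set them apart. The cascade genes ranged from -0.09 for the kinase gene RPS6KA3 to 0.06 for MAPK3, which encodes ERK1. Of 8 measured ID and inhibitory SMAD genes, 0 were called for the average, and their median was 0.11. CCND1, the G1 cyclin D1, averaged -0.09 ± 0.05 (adjusted p = 0.76), and MYC averaged -0.55 ± 0.13 (adjusted p = 0.081). Of 12 measured ETS and other ERK output genes, EPHA2 and FOSL1 were called lower and the list's median was -0.05. Of 12 SRF and YAP targets, CCN2 and EDN1 were called lower, with a median of -0.13. Of 6 RNA-decay and NF-kB brake genes, ZFP36 and ZFP36L1 were called lower. Of 7 measured genes of the aryl hydrocarbon receptor list, CYP1B1 was called higher and 0 lower. CYP1A1, another enzyme of that list, averaged 0.40 ± 0.10 (adjusted p = 0.13), with steps of 0.06, 0.40 and 0.27 at 0.5 h and 0.25, 0.49 and 0.91 at 1 h.

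The step from the earlier to the later time was then tested as the effect at 1 h minus the effect at 0.5 h. Most of the lower genes differed more at 1 h, yet no single gene passed this test. Of the 48 genes lower on average, 47 had the larger difference at 1 h (97.9%), beside 50.8% of all genes. Of the 5 genes higher on average, 2 had the larger difference at 1 h. The EGR1 effects at 0.5 and 1 h were -0.85 and -2.33 in 2D03, -1.19 and -2.09 in 2D04, and -1.83 and -2.70 in 3D04. All 3 series showed the larger effect at 1 h, and the change between the times was -1.08 ± 0.24 (adjusted p = 0.6). IER2 changed by -0.60 ± 0.12 (adjusted p = 0.6) and PTGS2 by -0.83 ± 0.26 (adjusted p = 0.87). For ZFP36 the difference between the times was -0.30 ± 0.17, with a 95% interval of -0.65 to 0.06, and for CYP1B1 it was 0.30 ± 0.26, with an interval of -0.25 to 0.84. In JUNB the times differed by -0.07 ± 0.22, since its 3D step was larger at 0.5 h (-0.94) than at 1 h (-0.34). Limma called 0 of 11940 genes for this difference, and 646 had an unadjusted p under 0.05. Without the 2D04 1 h pair, 1 gene was called.

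**Figure D3:**
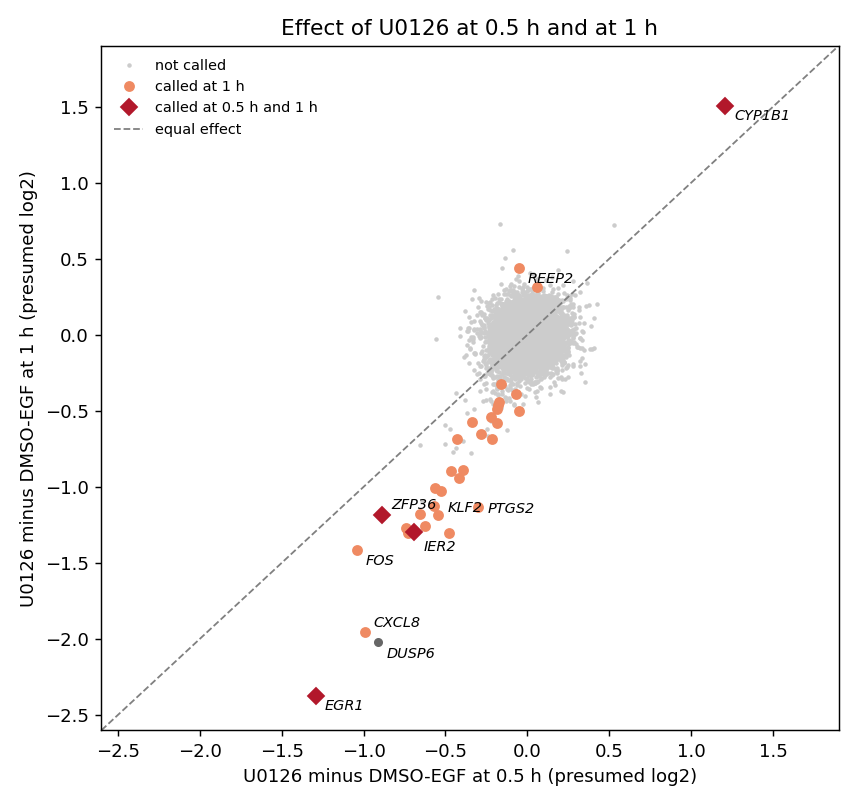
Each point is a gene, with U0126 minus DMSO-EGF at 0.5 h on the horizontal axis and at 1 h on the vertical axis (both presumed log2), and the dashed line marks equal effects. The 30 genes called lower at 1 h lie below the line, with EGR1 at -1.29 and -2.37, and the DUSP6 point in dark grey was called at neither time.

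At 0 h, after pre-treatment alone, EGR1 in U0126 cells differed from DMSO cells by 0.14, -0.47 and -0.62 in 2D03, 2D04 and 3D04, and at 4 h from DMSO-EGF cells by -3.99, -3.14 and -2.41. DUSP6 differed by 0.03, 0.33 and -0.27 at 0 h and by -3.57, -3.32 and -3.11 at 4 h, so that at the later time its 3 series lay closer together than at 1 h. CYP1B1 differed by -0.30, -1.71 and 0.06 at 0 h and by 1.29, 2.61 and 4.22 at 4 h, so that in 2D04 it was lower in U0126 cells before EGF was added. The U0126 array of 2D04 at 0 h had an actin difference between the 5′ and the 3′ end of -0.03, and its DMSO partner one of -0.36, outside the range of the 12 arrays compared. The part of that array in the 0 h values was not tested.

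Whether the 3 series gave the same result was asked by fitting each gene in 2 series and reading it in the series left out. With 2D03 left out, 7 genes were called lower in the other series, and 6 of them (all but IL11) were lower at both times in 2D03, beside 30.8% of all genes. With 2D04 left out, 18 of 19 (all but UBA7) were lower at both times in 2D04, beside 21.5%. With 3D04 left out, 15 of 15 were lower at both times in 3D04, beside 19.2%. The median difference of the 19 genes was -0.34 in 2D04 and -0.94 in the series that called them. For the 7 genes it was -1.02 in 2D03 and -0.93 in the calling series, and for the 15 genes -0.94 in 3D04 and -0.76 in the calling series. CYP1B1 was called higher and was higher in the series left out in all 3 rounds.

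Fitted series by series, with both times averaged, 17 genes were called in 2D03 (0.142%), 14 lower (0.117%) and 3 higher (0.0251%). In 2D04, 7 were called (0.0586%), 6 lower (0.0503%) and 1 higher (0.00838%). In 3D04, 39 were called (0.327%), 36 lower (0.302%) and 3 higher (0.0251%). The 4 genes called in each were EGR1, IER2, ZFP36 and CYP1B1. Each series had 1 U0126 array and 1 DMSO-EGF array per time. The error of these fits came from how the change of arm effects between the times varied among the series. The times are not separate repeats, so these p-values and those of the tests between series rest on no repeat of a series. EGR1 fell by 1.59, 1.64 and 2.27 in 2D03, 2D04 and 3D04, each ± 0.12 (limma adjusted p of at most 0.00019). IER2 fell by 1.03, 0.96 and 0.99, each ± 0.11 (adjusted p of at most 0.0099), the closest match across series of the 4. ZFP36 fell by 1.15, 1.03 and 0.94, each ± 0.15 (adjusted p of at most 0.04). Of the 14 genes called lower in 2D03, 5 were called in 2D04 (35.7%) and 9 in 3D04 (64.3%). Of the 6 called in 2D04, 5 were called in 2D03 (83.3%) and 3 in 3D04 (50%), and of the 36 in 3D04, 9 were called in 2D03 (25%) and 3 in 2D04 (8.33%). The sign agreed more often than the call. Of the 14 genes of 2D03, 14 were below 0 in 2D04, beside 45.5% of all genes, and 13 in 3D04, beside 42.9%. Of the 6 genes of 2D04, 5 were below 0 in 2D03, beside 58.7%, and 5 in 3D04. Of the 36 genes of 3D04, 34 were below 0 in 2D03 and 32 in 2D04. FOS was called in 2D03 (-2.07 ± 0.16, adjusted p = 0.00015) and in 2D04 (-1.15 ± 0.16, adjusted p = 0.038), and in 3D04 it differed by -0.48 ± 0.16 (adjusted p = 0.62).

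Between the repeats of 2D culture, the U0126 effect in 2D04 minus that in 2D03 differed for 0 genes in limma, with 802 at an unadjusted p under 0.05. FOS had a gap of 0.92 ± 0.23 (adjusted p = 0.53), DUSP1, a nuclear phosphatase of MAP kinases, of 0.90 ± 0.28 (adjusted p = 0.63), and TRIB1, a pseudokinase of the Tribbles family, of 0.73 ± 0.12 (adjusted p = 0.28), all nearer to 0 in 2D04. For EGR1 the gap was -0.05, with a 95% interval of -0.41 to 0.31, for IER2 0.07 (-0.28 to 0.41) and for ZFP36 0.12 (-0.35 to 0.59).

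Between the cultures, the U0126 effect in 3D minus that in 2D differed for 14 genes (0.117% of those tested), 13 more negative (0.109%) and 1 more positive (0.00838%) in 3D. Feedback genes, transcription factors and secreted ligands were among them. DUSP6 differed by -2.14 ± 0.29 (adjusted p = 0.032): its 3D steps were -1.87 and -3.91 at 0.5 and 1 h, and its 2D steps were -0.27 and -1.48 in 2D03 and -0.60 and -0.67 in 2D04. CXCL8 differed by -1.47 ± 0.23 (adjusted p = 0.047), with 3D steps of -2.13 and -2.78, against -0.24 and -1.79 in 2D03 and -0.61 and -1.30 in 2D04. For both genes the 3D step exceeded every 2D step.

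HBEGF differed by -1.21 ± 0.14 (adjusted p = 0.019) and SPRY4 by -1.15 ± 0.17 (adjusted p = 0.037). HES1, a transcriptional repressor known as a Notch target, read -1.57 and -2.06 with U0126 in 3D, against -0.59 and -0.65 with DMSO-EGF. In 2D its steps lay between -0.57 and 0.21, and the difference between the cultures was -1.15 ± 0.13 (adjusted p = 0.018). One other HES1 probe set averaged 0.09 over all 6 pairs. MYC differed by -0.85 ± 0.12 (adjusted p = 0.037), with 3D steps of -0.92 and -1.31 and 2D steps between -0.36 and -0.11. The other genes more negative in 3D were IER3 (-1.02), PHLDA1 (-0.91), the small MAF factor MAFF (-0.89), SPRY1 (-0.88), the syntaxin gene STX1A (-0.85), KLF10 (-0.77) and TRIB1 (-0.65).

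ID2, which binds basic helix-loop-helix factors and blocks their DNA binding, was the gene with a more positive effect in 3D. It read 0.68 and 1.28 with U0126 in 3D at 0.5 and 1 h, against -0.37 and -0.42 with DMSO-EGF. In 2D its steps were between 0.13 and 0.41. The cultures differed by 1.12 ± 0.17 (adjusted p = 0.037). FOS had the opposite gap from DUSP6, with a difference nearer to 0 in 3D, and missed the threshold, at 1.13 ± 0.20 (adjusted p = 0.071). EGR1 differed by -0.65 ± 0.14 (adjusted p = 0.26), while IER2, at 0.00 with a 95% interval of -0.30 to 0.30, and ZFP36, at 0.15 with an interval of -0.25 to 0.55, had gaps near 0.

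The 3D arrays are 1 series, so the culture and the series cannot be told apart. The count of 14 was 1 without the replicate block and became 0 without series 2D04, without its 1 h pair or without the 3D04 1 h pair. It was 6 without series 2D03, 4 without the 3D04 0.5 h pair, 5 without the 2D03 0.5 h pair and 7 without the 2D03 1 h pair.

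**Figure D4:**
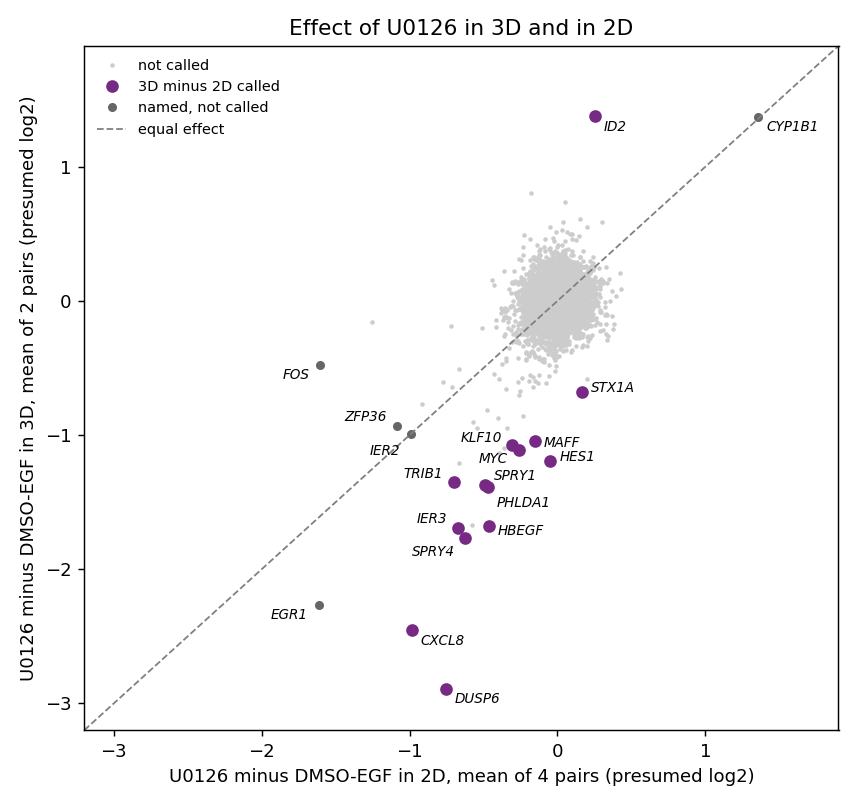
Each point is a gene, with U0126 minus DMSO-EGF in 2D (mean of 4 pairs) on the horizontal axis and in 3D (mean of 2 pairs) on the vertical axis, both presumed log2. Purple points passed the test of 3D minus 2D. DUSP6 and CXCL8 lie farthest below the dashed line of equal effects, ID2 above it, and IER2, ZFP36 and CYP1B1 near it.

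By distance over the 6 paired differences, the genes most like EGR1 were CXCL8 (1.31), IER3 (2.15), DUSP6 (2.21), IER2 (2.27) and SPRY4 (2.30), where a distance of 0 would mean the same 6 differences. Across all genes, the paired differences of any 2 pairs correlated weakly, with Pearson's r between 0.001 and 0.189 and a median of 0.095 over 11940 genes. The arrays compared share the chip type and, within a series, the series.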

How the data were processed

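RNA was measured on Affymetrix arrays, and the deposited table holds the authors' processed values, presumed log2 because RMA, which returns log2 signal per probe set, is named in the submitters' processing notes. The log base and the centring of each probe set are not given in the sources used here. Of 22930 probe sets, 19415 had 1 gene symbol in the platform annotation, 125 had several, 2866 were unnamed and 524 were array controls. Probe sets with 1 symbol gave 11940 genes, each read from the probe set with the largest SD over the 84 arrays not compared, which can favour probe sets that change more.

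The 24 arrays at 0.5 and 1 h (4 arms, 3 series) were fitted with limma 3.58.1 in R 4.3.3 (lmFit, eBayes with a variance trend), with series by time as the replicate block and arm by time as terms (12 residual degrees of freedom). Tests within and between series added arm by series (6 degrees of freedom), so their error came from changes between the times and not from repeats of a series. P-values were adjusted by Benjamini-Hochberg over all genes, at a threshold of 0.05. The labels name the series, and the comparison was defined in advance as paired by series and time. Within a series the deviations of arrays from their group means correlated at 0.549 to 0.888 (84 pairs of arrays). Such deviations hold the level of each series, so they do not test the pairing by time. The procedure was also run on data simulated with an equal U0126 shift in all series and at both times. Effects that differ between series were not simulated, so this run does not test the error for such genes. Alternatives were other array sets, probe set rules, normalizations, filters and arrays left out.

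Comparisons, the 20 gene lists and tests were chosen with earlier results of these data known. Named were the 10 lowest and highest called genes at each time and for the average with equal sign in all series, the 5 lowest and highest for other contrasts, up to 4 genes per list by adjusted p, and EGR1, FOS, DUSP6, ZFP36, IER2, SPRY4, MYC, FOSL1, CCND1 and CYP1A1. Other genes were named after their values were seen. Promoter windows came from RefSeq on GRCh38.p14. For 1 called gene the result is not reported here.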

Additional observations from a re-analysis of the deposited data

Results flagged for a closer look

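For 14 genes the effect of U0126 (U0126 minus DMSO-EGF, both times averaged) differed between series 3D04 and the mean of 2D03 and 2D04 in limma. It was more negative in 3D for DUSP6 (-2.14), CXCL8 (-1.47), HBEGF (-1.21), HES1 (-1.15), SPRY4 (-1.15), IER3 (-1.02), PHLDA1 (-0.91), MAFF (-0.89), SPRY1 (-0.88), MYC (-0.85), STX1A (-0.85), KLF10 (-0.77) and TRIB1 (-0.65). It was more positive in 3D for ID2 (1.12). Series 3D04 is the only 3D series, so the culture and the series cannot be told apart. Among the 3 series without regard to culture, 3 genes differed by an F test: HBEGF (adjusted p = 0.048), HES1 (adjusted p = 0.036) and TRIB1 (adjusted p = 0.036). TRIB1 had mean paired differences of -1.07 in 2D03, -0.34 in 2D04 and -1.35 in 3D04.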

How the results depend on the processing

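Without the replicate block, limma called 0 genes at 0.5 h, 0 at 1 h and 0 for the average, and 1 for 3D minus 2D, against 4, 33, 53 and 14 with the pairing by series and time. For each time and the average, the fit without the block held no term for the series, so level differences between series entered its error. For 3D minus 2D it kept a term for each series and left out the terms for time, so the same does not apply there. What lowered each count was not tested. With the 12 compared arrays alone, 13 genes were called at 1 h, 17 for the average and 0 for 3D minus 2D. With all arrays after 0 h, 20 were called at 1 h and 25 for the average. With DMSO-EGF and EGF arrays as 1 reference, 76 were called at 1 h, 101 for the average (51 of them among the 53) and 25 for 3D minus 2D (all 14 among them). With every probe set tested, 27 probe sets were called for 3D minus 2D, a count in which a gene can appear more than once. For these the cause was not tested. Leaving out each series or pair in turn gave 0 to 4 genes at 0.5 h, 5 to 43 at 1 h, 9 to 48 for the average, 0 to 1 for the difference between the times and 0 to 13 for 3D minus 2D. Array weights, median centring, quantile normalization, a filter on low SD, no variance trend and the mean of a gene's probe sets kept every count within 1.5 times. No named gene reversed its sign relative to a call. Single genes lost calls in 499 of 967 refits with arrays left out and in 167 of 1076 other refits with the pairing. Each time had 3 pairs of arrays, which limits the precision of each value.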
